A study of Rattus norvegicus with 10 samples.

Results

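The miR-23/27/24 clusters are a pair of paralogous microRNA clusters, called a and b, that each encode a miR-23, a miR-27 and a miR-24 hairpin. Their mature products were taken by name from the deposited small RNA sequencing table, which gave 10 of its 765 mature miRNAs: miR-23a-3p, miR-27a-3p, miR-27a-5p, miR-23b-3p, miR-23b-5p, miR-27b-3p, miR-27b-5p, miR-24-3p, miR-24-1-5p and miR-24-2-5p. The samples were hippocampi of Wistar rats aged 10 weeks, with 5 libraries from sham-operated rats and 5 from rats with both common carotid arteries occluded (2-VO), an operation that models chronic cerebral hypoperfusion. Libraries carry the numbers of their titles, sham 1 to 5 and 2-VO 3, 5, 6, 7 and 8. The labels give no time after the operation and do not say whether each library came from its own animal, so a p-value here reflects library-to-library scatter that could be technical. Levels are in RPM, read counts that the authors scaled to a common total per library, and intervals are 95%.

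A microRNA hairpin is cut into a 5p and a 3p strand, and usually one of them is loaded into Argonaute and kept while the other is degraded. The loaded strand finds messenger RNAs mainly through its seed, bases 2 to 8. The clusters arose by duplication, and their miRNAs are known from endothelium, blood cells, glia and muscle, where miR-23 and miR-27 have been studied in vessel growth, miR-27 also in lipid metabolism and miR-24 in cell cycle and survival. The hairpins of a cluster are transcribed together, but each mature strand is processed and degraded on its own.

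In RefSeq (rat build GRCr8) the hairpins of cluster a lie within 389 bases at chr19:40859455-40859843, and those of cluster b within 814 bases at chr17:1818669-1819482. Both clusters are on the minus strand in the order miR-23, miR-27, miR-24. Cluster a overlaps no protein-coding gene of that annotation, and the nearest are Zswim4 and Nanos3. Cluster b overlaps the spans of Aopep, which encodes an aminopeptidase, and of Fancc, a gene of the Fanconi anaemia DNA repair pathway. Whether it is intronic was not determined here. The deposited values were made on build rn6 per the submitters' processing notes, so the GRCr8 positions describe the loci and were not used for counting.

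The mature sequences from RefSeq are shown because the comparison of the clusters rests on how little they differ. They are written 5′ to 3′ with the seed in capitals.

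miR-23a-3p: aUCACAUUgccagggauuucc

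miR-23b-3p: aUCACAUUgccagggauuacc

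miR-27a-3p: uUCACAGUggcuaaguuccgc

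miR-27b-3p: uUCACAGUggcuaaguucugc

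miR-24-3p: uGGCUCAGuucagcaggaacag

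miR-27a-5p: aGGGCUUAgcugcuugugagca

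miR-27b-5p: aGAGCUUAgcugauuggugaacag

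miR-23b-5p: gGGUUCCUggcaugcugauuu

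miR-24-1-5p: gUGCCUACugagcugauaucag

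miR-24-2-5p: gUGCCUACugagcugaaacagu

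Counted from the 5′ end, miR-23a-3p and miR-23b-3p differ only by U19A, and miR-27a-3p and miR-27b-3p only by C19U, so both pairs share their seed. The miR-24-3p strand is the same in both clusters, and its reads cannot be assigned to a locus. The 5p strands differ more. miR-27a-5p and miR-27b-5p differ at 8 of the first 22 positions, starting with G3A inside the seed, and miR-24-1-5p (cluster b) and miR-24-2-5p (cluster a) at 5 of 22, all outside the seed. Of the 765 names 690 had a RefSeq sequence, and among these no miRNA outside the 10 members shared a 7-base seed with a member. The remaining names were not checked. How reads that fit both miR-23 or both miR-27 paralogs were assigned is not stated, so each of those pairs can share reads.

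The miR-27 hairpins, whose strand ratios are compared below, are shown with both mature strands in capitals, 5p first.

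Mir27a hairpin: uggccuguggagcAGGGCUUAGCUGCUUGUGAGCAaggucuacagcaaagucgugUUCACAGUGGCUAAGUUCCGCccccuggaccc

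Mir27b hairpin: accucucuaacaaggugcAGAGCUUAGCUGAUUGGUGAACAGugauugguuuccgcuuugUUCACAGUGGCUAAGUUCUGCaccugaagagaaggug

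The smallest value above 0 in each library was taken to stand for 10 reads. On that reading the divisor behind the RPM values was 13032805 to 13850400 reads per library. Of it 60.3% to 78.0% fell on listed miRNAs, with the lowest share in 2-VO 3. Neuronal markers were abundant in all 10 libraries, with miR-9a-5p at 109628 to 147717 RPM and miR-124-3p at 1690.3 to 2950 RPM. The summed endothelial markers (miR-126a-3p and miR-126a-5p) ran from 6555 to 7731 RPM in sham and from 5769 to 8326 RPM in 2-VO libraries. Those of leukocytes and microglia summed to 26.2 to 49.5 RPM and those of red blood cells to 84.1 to 215 RPM. The 3 choroid plexus markers were above 0 in every library, and their sum ran from 548 to 949 RPM under sham and from 387 to 562 RPM under 2-VO. Their part in the results below was not tested. In bulk tissue, fewer cells of a type and less RNA per cell cannot be told apart.

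Together the 10 mature miRNAs held 2.06% to 2.82% of the listed RPM. Their levels spanned from 1.86 to 11708 RPM as means over the 10 libraries, and miR-27b-3p alone made up 66.8% to 71.6% of their sum. It was the 15th most abundant miRNA of the table. miR-24-3p followed at a mean of 2725 RPM (16.4% of the sum), then miR-23b-3p at 1186, miR-27a-3p at 567 and miR-23a-3p at 309 RPM. The 5p strands stood below all 3p strands, with miR-24-2-5p at 96.4, miR-24-1-5p at 26.0, miR-27b-5p at 13.1, miR-27a-5p at 9.99 and miR-23b-5p at 1.86 RPM. The ranges of neighbours in this order did not overlap over the 10 libraries, except that miR-27b-5p (7.79 to 16.3 RPM) and miR-27a-5p (7.18 to 13.2 RPM) did. miR-23a-5p is listed at 0 in all 10 libraries, which is taken to stand for fewer than 10 reads, or 0.722 to 0.767 RPM. Mature strands differ in how well adapters join them, so a difference in RPM between miRNAs is not a measured difference in molecules.

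**Figure D1:**
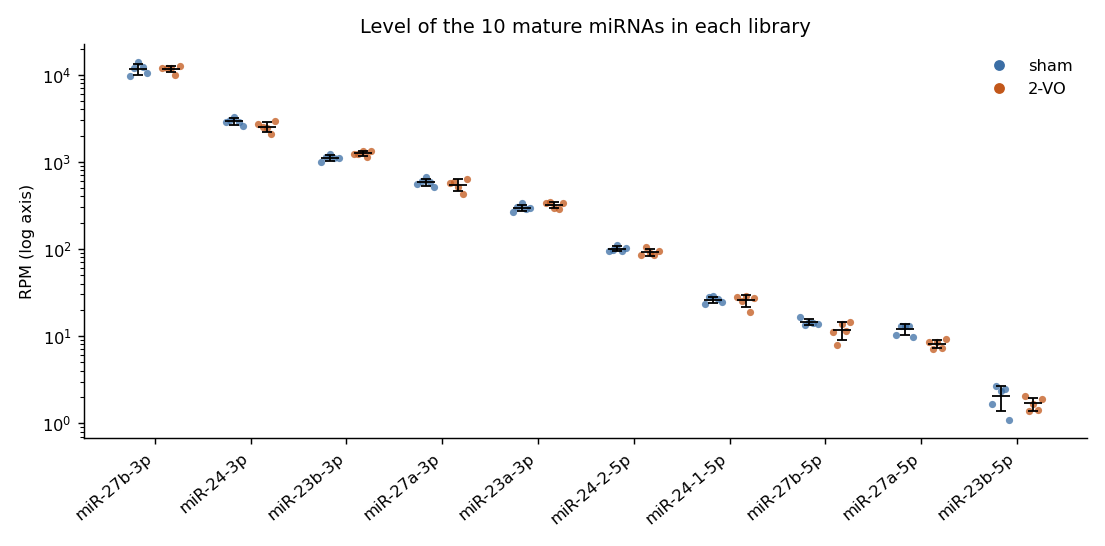
RPM (log axis) of each of the 10 mature miRNAs in the 5 sham and 5 2-VO libraries; points are libraries, and bars give the mean ± SD of a group. The 3p strands lie between 264 and 14044 RPM, above all 5p strands, and only the miR-27a-5p groups do not overlap.

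In both conditions the b copies of miR-23 and miR-27 stood far above the a copies. In sham libraries 1 to 5, miR-23a-3p stood at 264, 304, 334, 284 and 297 RPM against 993, 1151, 1225, 1096 and 1116 RPM for miR-23b-3p. In 2-VO 3, 5, 6, 7 and 8 the a copy stood at 338, 349, 296, 285 and 338 RPM and the b copy at 1230.3, 1239, 1335, 1136 and 1336 RPM. The a copy thus amounted to 0.265 ± 0.00473 of the b copy after sham surgery and to 0.256 ± 0.0235 of it after 2-VO (SD, n = 5 each). It was nearly constant over the sham libraries and ranged more widely in 2-VO, from 0.222 in 2-VO 6 to 0.282 in 2-VO 5.

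The gap was wider for miR-27, the most abundant product of the clusters. miR-27b-3p stood at 9697, 11879, 14044, 12213 and 10559 RPM in sham 1 to 5 and at 11992, 12034, 11995, 10001 and 12662 RPM in 2-VO 3, 5, 6, 7 and 8. miR-27a-3p stood at 562, 597, 669, 583 and 513 RPM in the same sham libraries and at 575, 588, 521, 424 and 638 RPM in the 2-VO libraries. Here the a copy amounted to 0.0504 ± 0.00435 of the b copy after sham surgery and to 0.0466 ± 0.00352 of it after 2-VO. The copies of miR-23-3p and of miR-27-3p differ by 1 base and can share reads. How far this shifts either ratio is not known. Among the 38 pairs of kept miRNAs whose names differ only in the letter a or b, that of miR-27-3p was the 2nd lowest ratio (mean log2 ratio -4.37, interval -4.45 to -4.28), and that of miR-23-3p the 7th lowest (-1.94, interval -2.01 to -1.86).

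The b copy was also the higher among the miR-27 5p strands, by less. The ratio of miR-27a-5p to miR-27b-5p averaged 0.828 ± 0.155 for sham and 0.712 ± 0.133 for 2-VO, with miR-27b-5p the higher in 10 of 10 libraries (mean log2 ratio -0.37, limma adjusted p = 0.00057). For miR-24 only the minor 5p strand tells the loci apart, and that of cluster a was the higher. How much miR-24-3p each locus gave is not known from it. For miR-27 the a to b ratio averaged 0.770 for 5p and 0.0485 for 3p strands over the 10 libraries. miR-24-2-5p stood 3.09 to 4.44 times above miR-24-1-5p, with a ratio of 3.84 ± 0.289 for sham and 3.66 ± 0.619 for 2-VO. All 3 letter pairs differed from an even level over the 10 libraries (limma), but so did 97.4% of the 38 pairs of the table, of which 13 had the b copy higher. Being unequal is therefore the rule among such pairs.

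miR-3074, whose hairpin lies on the opposite strand of the miR-24-1 hairpin, overlaps miR-24-1-5p by 20 bases. Its level averaged 13.8 ± 1.76 RPM for sham and 12.7 ± 3.17 RPM for 2-VO, and its ratio to miR-24-1-5p ran from 0.411 to 0.565. Whether reads were counted by strand is not stated, so how reads of these overlapping strands were assigned is not known.

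**Figure D2:**
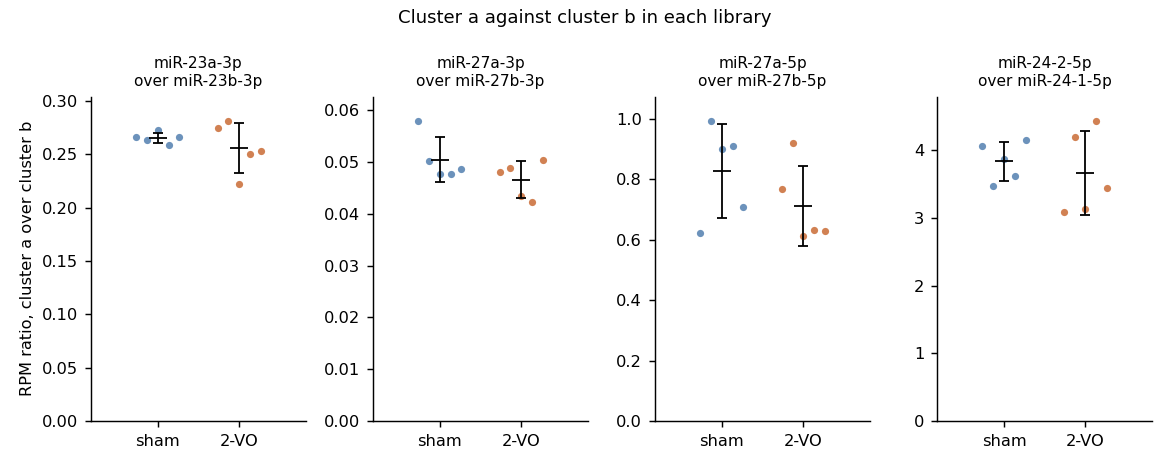
Ratio of the RPM of the cluster a copy to that of the cluster b copy in each library, 1 panel per strand, each axis from 0; points are libraries and bars the mean ± SD of 5. The b copy is higher for miR-23-3p, miR-27-3p and miR-27-5p, and the a copy for miR-24-5p, with overlapping groups in each panel.

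None of the a to b ratios passed the test of a difference between 2-VO and sham. Among all 38 pairs, 0% had an adjusted p under 0.05 and 0% an unadjusted p under 0.05 (limma, smallest adjusted p = 0.52). The log2 ratio was lower in 2-VO by 0.055 for miR-23-3p (interval of 2-VO minus sham -0.21 to 0.10), by 0.11 for miR-27-3p (-0.30 to 0.071) and by 0.19 for miR-27-5p (-0.52 to 0.14). Without 2-VO 6 the difference for miR-23-3p was -0.0044 and without 2-VO 5 it was -0.090. Without sham 1 that for miR-27-3p was -0.061, and without sham 2 that for miR-27-5p was -0.12. The intervals leave room for a change in the balance of the clusters of up to their bounds. The log2 ratio of miR-24-2-5p to miR-24-1-5p was 0.081 lower in 2-VO (exact two-sided permutation test, n = 5 each, p = 0.49).

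The strands of the hairpins were very unequal. Reads of miR-27b-5p amounted to 0.0647% to 0.168% of those of miR-27b-3p, and reads of miR-23b-5p to 0.0962% to 0.232% of those of miR-23b-3p. For miR-27a the share was 1.22% to 2.23%, so its minor strand was relatively more frequent than that of its paralog in every library. The 5p means of miR-27a and miR-27b were 9.99 and 13.1 RPM, so this rests on the 3p means of 567 and 11708 RPM. Those 3p strands differ by 1 base and can share reads. miR-24-1-5p reached 0.824% to 1.17% and miR-24-2-5p 3.18% to 4.21% of miR-24-3p. Because miR-24-3p holds reads of both hairpins, each share is lowered relative to its own hairpin. The miR-24-1-5p value can also hold reads of miR-3074, so the direction of its error is not known. All 5 ratios differed from even (limma), as did 98.5% of the 134 hairpins with both strands kept. On the log2(RPM + 1) scale miR-27b had the 2nd most 3p-sided ratio of the 134 (-9.71) and miR-23b the 4th (-8.71). At 14 to 36 reads of miR-23b-5p, the added 1 RPM makes that ratio less extreme than the reads give.

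**Figure D3:**
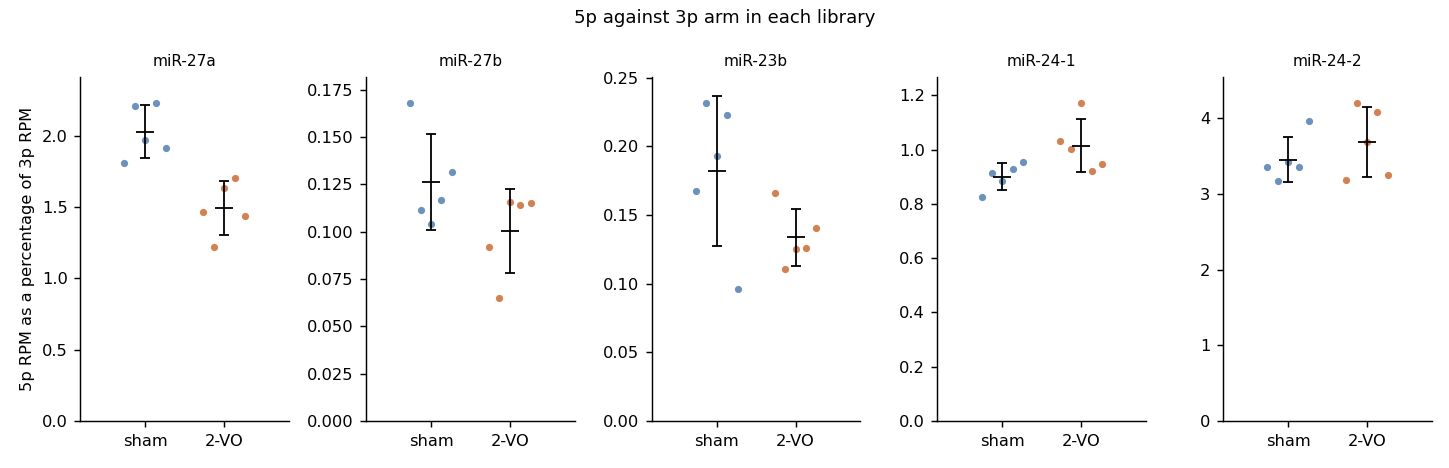
RPM of the 5p strand as a percentage of that of the 3p strand in each library, 1 panel per hairpin, each axis from 0; points are libraries and bars the mean ± SD of 5. The miR-27a percentages are 1.81 to 2.23 in sham and 1.22 to 1.70 in 2-VO, with no overlap (as in 1.49% of all 134 hairpins), while the groups of the other 4 hairpins overlap.

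The strand ratio of miR-27a was lower in 2-VO. miR-27a-5p amounted to 1.81%, 2.21%, 1.97%, 2.23% and 1.92% of miR-27a-3p in sham 1 to 5 and to 1.47%, 1.22%, 1.63%, 1.70% and 1.44% in 2-VO 3, 5, 6, 7 and 8. All 2-VO libraries lay below all sham libraries, and 1.49% of the 134 hairpins had groups that did not overlap (miR-27a and 1 other). The log2 ratio differed by -0.40 ± 0.10 (SE, n = 5 each), which had the 2nd smallest p of the 134 hairpins and did not pass (limma adjusted p = 0.12, and 0.089 to 0.44 with 1 library left out). Of the hairpins, 0% passed, and 5.97% had a lower ratio in 2-VO at an unadjusted p under 0.05, among them miR-27a and miR-23b.

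Of the other hairpins, miR-23b had a log2 ratio difference of -0.33 ± 0.13 (limma adjusted p = 0.38), which passed without sham 5 (-0.46, limma adjusted p = 0.0498). In sham 5 miR-23b-5p was at its lowest, 1.07 RPM, against 1.66 to 2.67 RPM in the other sham libraries. miR-27b had a difference of -0.32 ± 0.16 (limma adjusted p = 0.46), which was -0.18 without 2-VO 5. Both miR-24 ratios were higher in 2-VO, by 0.17 ± 0.089 for miR-24-1 (limma adjusted p = 0.46) and by 0.089 ± 0.10 for miR-24-2 (limma adjusted p = 0.78). The latter ran from 0.039 (without 2-VO 5) to 0.14 (without sham 5).

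The comparison of single miRNAs asks whether carotid occlusion moved the products of these clusters. None of the 10 passed, as none of the 474 miRNAs kept at a mean of at least 1 RPM did (0% at an adjusted p under 0.05, limma). At an unadjusted p under 0.05, 1 of the 10 was lower in 2-VO, miR-27a-5p, against 4.22% of all miRNAs, and 0 were higher, against 0.844%. voom on whole reads likewise called 0 of 461 miRNAs, with 25 at an unadjusted p under 0.05. In total 7 of the 10 were lower in 2-VO, which is near the 62.2% of all miRNAs, and their median log2 fold change was -0.11 against -0.051 for all. The split of all miRNAs depends on the scaling, since 49.2% were lower when scaled to the listed miRNA reads (6 of the 10) and 48.2% with TMM factors (6 of the 10). Under each of these scalings 1 of the 10 was lower and 1 higher at an unadjusted limma p under 0.05. Of all miRNAs 34 of 476 and 36 of 475 then fell under it, in either direction.

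The minor strand of miR-27a had the smallest p of the table. miR-27a-5p stood at 10.2, 13.2, 13.2, 13.0 and 9.82 RPM in sham 1 to 5 and at 8.46, 7.18, 8.51, 7.21 and 9.18 RPM in 2-VO 3, 5, 6, 7 and 8. All 2-VO libraries lay below all sham libraries, a lack of overlap seen in 0.633% of all miRNAs. Its log2 fold change was -0.49 ± 0.13 (SE, n = 5 each; limma adjusted p = 0.44), and it ran from -0.56 to -0.46 with 1 library left out. The values rest on 94 to 178 reads per library. The major strand of the same hairpin, miR-27a-3p, had a log2 fold change of -0.099 (interval -0.35 to 0.16), which ran from -0.16 without 2-VO 8 to -0.0085 without 2-VO 7.

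The minor strand of miR-27b was also at lower values in 2-VO. miR-27b-5p stood at 16.3, 13.3, 14.6, 14.3 and 13.9 RPM in sham 1 to 5 and at 11.0, 7.79, 13.9, 11.4 and 14.6 RPM in 2-VO 3, 5, 6, 7 and 8. Here 3 of 5 2-VO libraries lay below the sham range and 2 within it (log2 fold change -0.31, interval -0.63 to 0.015, limma adjusted p = 0.76). Without 2-VO 5 the log2 fold change was -0.18. miR-23b-5p, with 1.07 to 2.67 RPM for sham and 1.37 to 2.04 RPM for 2-VO, had a log2 fold change of -0.16 (interval -0.52 to 0.20), from -0.29 without sham 5 to -0.084 without sham 2. The abundant miR-27b-3p was level between the groups (log2 fold change 0.014, interval -0.22 to 0.24), and its sign turned when sham 1, sham 5 or 2-VO 8 was left out (-0.050, -0.019 and -0.014).

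miR-24-3p, whose seed family is studied as a brake on cell cycle genes, stood at 2856, 3031, 3238, 2848 and 2605 RPM in sham 1 to 5. In 2-VO 3, 5, 6, 7 and 8 it stood at 2706, 2510.0, 2468, 2067 and 2919 RPM. Of the 2-VO libraries 3 lay below the sham range, and 2-VO 3 and 2-VO 8 lay inside it (log2 fold change -0.21, interval -0.43 to 0.015, limma adjusted p = 0.76). Without 2-VO 7 the log2 fold change was -0.14. Its 5p strands had log2 fold changes of -0.12 for miR-24-2-5p (interval -0.33 to 0.095) and -0.037 for miR-24-1-5p (-0.31 to 0.23), and the latter turned to 0.064 without 2-VO 7 and to 0.019 and 0.020 under the 2 scalings named above.

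Both miR-23 major strands were at higher values in 2-VO. For miR-23b-3p 4 of 5 2-VO libraries lay above the sham range, which ended at 1225 RPM, and 2-VO 7 lay inside it (log2 fold change 0.17, interval -0.025 to 0.36, limma adjusted p = 0.76). It was 0.23 when scaled to the listed miRNA reads (limma adjusted p = 0.52) and 0.23 with TMM factors (0.45). miR-23a-3p had a log2 fold change of 0.11 (interval -0.10 to 0.33, limma adjusted p = 0.87), with 3 of 5 2-VO libraries above the sham range. Without sham 1 it was 0.074.

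**Figure D4:**
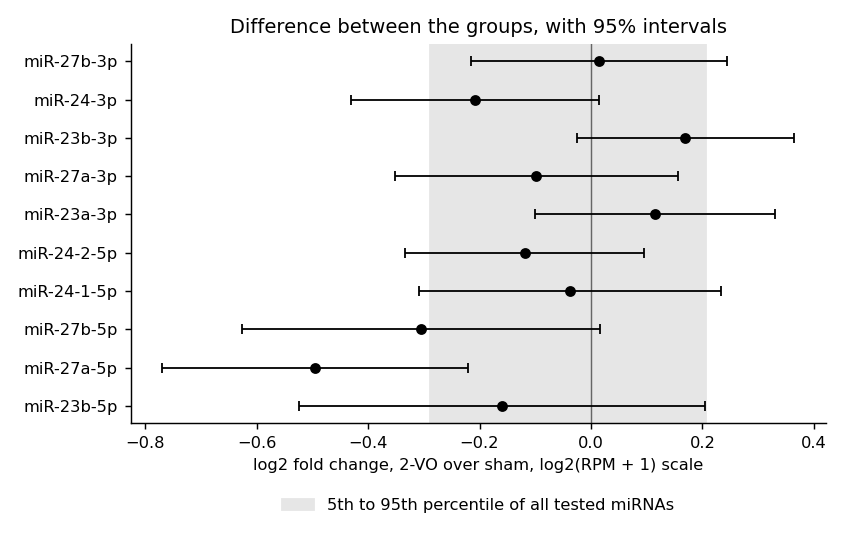
log2 fold change of 2-VO over sham on the log2(RPM + 1) scale for the 10 mature miRNAs, with 95% intervals from limma; the grey band spans the 5th to 95th percentile of all 474 tested miRNAs (-0.29 to 0.21). miR-27a-5p at -0.49 has the only interval that leaves out 0, and no member passed after adjustment.

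The balance between the members was examined with ratios, which do not depend on the scaling of a library. Those to miR-24-3p are not ratios within 1 cluster, since miR-24-3p pools both loci. The pairs below were chosen after their values were seen and carry no test. Of the 28 pairs among the 8 members with a mean of at least 10 RPM, 5 had ratios that did not overlap between the groups, against 1.37% of the 57283 pairs of miRNAs at that level. The cut left out miR-23b-5p and, at a mean of 9.99 RPM, miR-27a-5p, whose ratio to miR-27a-3p did not overlap either. Pairs that share a member are not independent of each other. The 5 pairs were miR-24-3p with miR-23a-3p, miR-23b-3p or miR-27b-3p, miR-24-2-5p with miR-23a-3p, and miR-27b-5p with miR-23b-3p.

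The ratio of miR-23b-3p to miR-24-3p was 0.348, 0.380, 0.378, 0.385 and 0.429 in sham 1 to 5 and 0.455, 0.493, 0.541, 0.550 and 0.458 in 2-VO 3, 5, 6, 7 and 8. All 2-VO libraries lay above all sham libraries, with a mean log2 difference of 0.38. The ratio of miR-23a-3p to miR-24-3p was 0.0924, 0.100, 0.103, 0.0998 and 0.114 in sham and 0.125, 0.139, 0.120, 0.138 and 0.116 in 2-VO libraries, a log2 difference of 0.32. The groups are separated by a narrow gap, between sham 5 and 2-VO 8.

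The ratio of miR-27b-3p to miR-24-3p was 3.40 to 4.34 in sham and 4.34 to 4.86 in 2-VO libraries, a log2 difference of 0.22, and sham 3 and 2-VO 8 all but touched. That of miR-27a-3p to miR-24-3p overlapped, at 0.197 to 0.207 in sham and 0.205 to 0.234 in 2-VO libraries. miR-27b-3p stood 9.46 to 11.5 times above miR-23b-3p in sham and 8.80 to 9.75 times in 2-VO libraries, and miR-27a-3p stood 1.73 to 2.13 and 1.49 to 1.89 times above miR-23a-3p. For both the a and the b copies, the ratio to the pooled miR-24-3p had its larger log2 difference for miR-23 and its smaller one for miR-27.

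**Figure D5:**
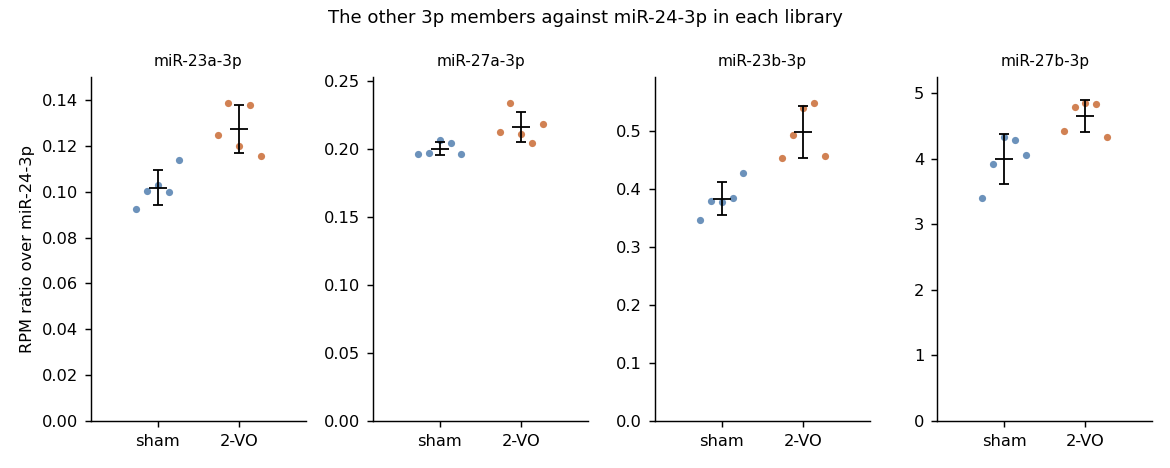
RPM of each other 3p member as a ratio to miR-24-3p in each library, each axis from 0; points are libraries and bars the mean ± SD of 5. The ratio of miR-23b-3p is 0.348 to 0.429 in sham and 0.455 to 0.550 in 2-VO, and the miR-27a-3p groups overlap.

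Across the 10 libraries the 3p strands were compared in 10 pairs of log2(RPM + 1) values. miR-27a-3p and miR-24-3p had the highest correlation (Pearson r = 0.91, permutation p = 0.00066, adjusted over the 10 pairs 0.0066; Spearman rho = 0.81, permutation p = 0.0073, adjusted 0.068). Without the 2 libraries farthest from the median of miR-27a-3p, sham 3 and 2-VO 7, r was 0.64, so it rests in part on those libraries. The lowest r was that of miR-23b-3p and miR-24-3p, at -0.023 (permutation p = 0.95, adjusted 0.95; rho = -0.067, permutation p = 0.87, adjusted 0.87). An adjusted permutation p under 0.05 was found for 4 pairs with Pearson's r. Besides miR-27a-3p with miR-24-3p, they were miR-23a-3p with miR-23b-3p (0.046), miR-27a-3p with miR-27b-3p (0.046) and miR-23a-3p with miR-27b-3p (0.049). The paralog pairs can share reads, and the part of this in their r was not tested. With Spearman's rho 0 pairs passed, and 3 had an unadjusted permutation p under 0.05. The median r of the 10 pairs was 0.63, beside 0.36 for all pairs of the 339 miRNAs of at least 10 RPM. These tests ask whether r is 0, and how many of all pairs would pass them was not computed.

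The pooled values mix the groups. As deviations from the group means, all 10 pairs had a positive r, from 0.63 for miR-27a-3p and miR-23b-3p to 0.96 for miR-27a-3p and miR-24-3p, and 7 passed (permutation within groups, adjusted over the 10 pairs). miR-23b-3p and miR-24-3p then had an r of 0.64 (adjusted permutation p = 0.059). The median r of the 10 pairs was 0.77, beside 0.39 (upper quartile 0.61) for all pairs of the 339 miRNAs of at least 10 RPM. How many of all those pairs would pass was not computed here either. The miRNAs of a library share its divisor, and the part of this in r was not tested beyond scaling to listed reads, which gave 0.90 for miR-27a-3p and miR-24-3p as pooled.

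As a description, the miRNAs outside the clusters most like a member over the 10 libraries, among 331 of at least 10 RPM, were miR-497-5p (r = 0.93) and miR-195-5p (0.89) for miR-23b-3p and miR-195-5p (0.86) and miR-324-5p (0.81) for miR-23a-3p. For miR-27b-3p they were miR-879-5p (0.93) and miR-181b-1-3p (0.89). miR-27a-3p and miR-24-3p had the same closest miRNA, miR-3556a (0.90 and 0.91), followed by miR-124-3p (0.82) for miR-27a-3p and miR-9b-5p (0.90) for miR-24-3p.

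The clusters are often studied beside other miRNAs of endothelium and vessel growth. Of 16 such miRNAs 14 were kept, 7 of them with a positive and 7 with a negative fold change, and with a median log2 fold change of 0.0034 against -0.051 for all miRNAs. limma called 0 of them (lowest adjusted p = 0.76). The hypoxia-induced miR-210-3p, at 0.28, was the 1 miRNA of the 14 whose limma p before adjustment fell under 0.05. Of all 474 miRNAs 24 did. The endothelial miR-126a-3p, made from an intron of Egfl7, had a log2 fold change of -0.070, and miR-126a-5p of the same hairpin of 0.058. The lowest of the list was miR-222-3p, a regulator of KIT and cell proliferation, at -0.20.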

How the data were processed

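Small RNA libraries were made from Trizol-isolated total RNA with a NEBNext kit, per the labels' protocols. Tools and build named in the submitters' processing notes are bcl2fastq, BWA and rn6. The deposited table holds RPM values, which the authors computed per library, with a divisor, annotation and treatment of reads with several matches not stated in those sources. With the smallest value of each library taken as 10 reads, all values above 0 were whole reads within 0.02 reads at 1 divisor per library. Lower counts are taken to be listed as 0. A multiple of the divisor would fit whole reads as well, so the divisors and read counts given here are inferred. The columns of all 10 libraries were used.

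log2(RPM + 1) was computed where the mean reached 1 RPM, and groups were compared by limma (version 3.58.1, R 4.3.3; moderated two-sided test, trend option, no covariate, Benjamini-Hochberg over all miRNAs, threshold 0.05). Strand ratios and a to b ratios were fitted in the same way over all hairpins and all letter pairs. For these the trend option followed the mean log2 ratio and not the read level of the strands. Levels over all libraries were tested without trend. Correlations used 100000 permutations. The models were tested on simulated data. The rule for named miRNAs took all 10 members, their pairs and hairpins, the 2 miRNAs of at least 10 RPM most correlated with each 3p member, and a list of vessel miRNAs. The members, lists and tests were chosen with earlier results of these data known, and the ratios within clusters after their values were seen. Sequences and positions are from RefSeq (GRCr8).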

Additional observations from a re-analysis of the deposited data

Results flagged for a closer look

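In 50 groups of 5 values (the 10 members and 15 ratios in each condition), 2 held a library whose gap to the nearest other was above 0.71 of the range of the group, where chance gives about 2.5. miR-27b-3p was lowest in 2-VO 7, at 10001 RPM against 11992 to 12662 RPM in the other 2-VO libraries. The ratio of miR-27a-3p to miR-27b-3p was highest in sham 1, at 0.0580 against 0.0476 to 0.0503 in the other sham libraries.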

How the results depend on the processing

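Of the 10 members 0 passed in the comparison of 2-VO with sham under all other settings run: pseudocounts of 0.5 and 5, no filter, a mean of at least 10 RPM (8 members kept), 3 other scalings, the robust option, voom and each library left out. The exact permutation test also gave 0, but with 5 against 5 libraries its smallest p is 0.0079, and its smallest adjusted p over all miRNAs was 0.63, so it says nothing about stability. Of the 3 a to b ratios 0 passed in any setting. The 5 strand ratios had 0 to 1 passing with 1 library left out, and at a mean of at least 10 RPM 3 of them could be fitted, which is why 3 and not 5 then differed in level. Signs turned for miRNAs near 0. miR-24-1-5p was at 0.019 when scaled to listed reads, 0.020 under TMM and 0.016 under median-of-ratios scaling (chosen after seeing the data, as was voom). With 1 library left out it ran from -0.082 to 0.064 (without 2-VO 7), and miR-27b-3p from -0.050 (without sham 1) to 0.084. Of the pairs of 3p strands 4 passed as pooled, 7 as deviations from group means, where miR-23b-3p and miR-24-3p turned to 0.64, and 0 with Spearman's rho, and the cause was not tested.

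Numbers 3 and 5 are shared by the groups, but same-numbered libraries did not deviate together (r = -0.058 and -0.18), so the numbers are not taken to pair them. With the replicate block, which rests on those 4 libraries, 0 members, 0 strand ratios and 0 a to b ratios passed, while 8 of all 474 miRNAs did, on 1 residual degree of freedom. Signs turned for miR-23b-5p (0.025), miR-27b-3p (-0.020), the miR-24-2 strand ratio (-0.0052) and the a to b ratios of miR-23-3p (0.048), miR-27-3p (0.010) and miR-27-5p (0.076). A planned count test was not run, because values under 10 reads are taken as not listed. Depth limits miR-23b-5p most, at 14 to 36 reads per library.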
